A study of Mus musculus with 24 samples.

Results

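The small nucleolar RNAs (snoRNAs) and small Cajal body RNAs (scaRNAs) described here are the 34 rows of the deposited expression table whose symbol starts with Snora, Snord or Scarna and whose rounded count reached 10 in at least 6 of the 24 libraries. The table has 55487 rows, of which 150 carry one of these symbols. The 34 members are 12 of 42 Snora rows, 17 of 99 Snord rows and 5 of 9 Scarna rows. The members were thus chosen by their measured counts, so their levels and their difference between batches are given as a description and support nothing.

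Bulk RNA was sequenced from the kidneys of 24 males that had XLAS (X-linked Alport syndrome), a hereditary disease of the glomerular filter. They were on the B6 background and 15 weeks old. The labels name the cross Nbl1xCol4a5, Col4a5 being the type IV collagen gene mutated in this syndrome. All 24 mice, the wild-type controls included, carried the disease, and they differed in Nbl1, which encodes a secreted antagonist of bone morphogenetic proteins. The heterozygous group (HET) had 13 mice and the wild-type group (WT) had 11, with 6 HET and 6 WT in batch 1 and 7 HET and 5 WT in batch 2. The labels state the batch number without saying what differed between the batches, name 1 mRNA library kit for all libraries and do not describe the Nbl1 or Col4a5 allele. In whole kidney, fewer cells of a type and less RNA per cell cannot be told apart.

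SnoRNAs are short noncoding RNAs that work in the nucleolus as guides. Box C/D snoRNAs (Snord) pair with ribosomal RNA and direct methylation of the ribose, box H/ACA snoRNAs (Snora) direct the change of uridine to pseudouridine, and a few of each act in cutting the ribosomal RNA precursor. ScaRNAs carry the same boxes but gather in Cajal bodies, where they guide modification of the spliceosomal small nuclear RNAs. Most are cut from the introns of a host gene after splicing and end without a poly(A) tail.

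The box C/D members that later results turn on are printed first, 5′ to 3′, with the C box (TGATGA, searched in the first 20 bases) and the D box (CTGA, searched in the last 15 bases) in capitals. All sequences are GENCODE M21 transcripts on GRCm38, the build of the deposited files. Snord17 (chr2:144265979-144266216, minus strand, in Snx5) was the most abundant Snord row. Snord14c, Snord14d and Snord14e (chr9:40803583-40803668, chr9:40803995-40804080 and chr9:40804748-40804837, plus strand, in Hspa8) are copies of U14, which acts in maturation of the small-subunit ribosomal RNA.
Snord17: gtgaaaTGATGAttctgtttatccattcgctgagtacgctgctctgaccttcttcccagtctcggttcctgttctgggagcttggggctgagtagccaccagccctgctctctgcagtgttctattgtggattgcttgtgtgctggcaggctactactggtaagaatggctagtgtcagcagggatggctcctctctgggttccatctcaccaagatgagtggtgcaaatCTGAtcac
Snord14c: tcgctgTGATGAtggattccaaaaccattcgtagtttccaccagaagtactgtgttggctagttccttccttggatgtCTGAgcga
Snord14d: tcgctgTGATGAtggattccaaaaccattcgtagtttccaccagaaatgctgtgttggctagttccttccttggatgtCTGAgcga
Snord14e: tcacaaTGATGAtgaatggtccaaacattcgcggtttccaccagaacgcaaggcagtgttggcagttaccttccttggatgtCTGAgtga

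Snord14c and Snord14d were identical at 84 of 86 positions (97.7%), and each matched Snord14e at 74 of 93 aligned positions (79.6%). The counts of all 3 were not whole numbers in any batch 1 library. Each also lies under an annotated exon of Hspa8 on the same strand, so how reads were divided, among the copies or with that exon, is uncertain.

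The H/ACA members are printed with the ACA trinucleotide (searched in the last 8 bases) in capitals. Snora73a and Snora73b (chr4:132352775-132352979 and chr4:132352322-132352526, minus strand, both in Rcc1) are the 2 copies of U17, which acts in cleavage of the ribosomal RNA precursor. Snora7a (chr6:115807975-115808114, minus strand, in Rpl32) had the smallest p for genotype.
Snora73a: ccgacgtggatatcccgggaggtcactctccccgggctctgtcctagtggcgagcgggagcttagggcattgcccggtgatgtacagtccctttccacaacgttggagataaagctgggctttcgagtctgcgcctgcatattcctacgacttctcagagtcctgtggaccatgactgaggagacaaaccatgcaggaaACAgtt
Snora73b: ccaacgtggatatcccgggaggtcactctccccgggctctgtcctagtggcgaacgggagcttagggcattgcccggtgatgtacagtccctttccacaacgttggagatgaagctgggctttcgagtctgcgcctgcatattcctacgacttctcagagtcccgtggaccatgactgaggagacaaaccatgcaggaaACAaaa
Snora7a: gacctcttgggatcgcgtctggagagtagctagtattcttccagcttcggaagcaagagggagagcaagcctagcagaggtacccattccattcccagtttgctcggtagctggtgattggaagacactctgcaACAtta

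Snora73a and Snora73b matched at 198 of 205 positions (96.6%). Their counts were not whole in 12 and 8 of the 12 batch 1 libraries, and an exon of Snhg3 covers Snora73a, so their split is uncertain too. The 2 most abundant scaRNAs are shown by their first and last 100 bases, with C and D boxes in capitals. Scarna10 (325 bases on the minus strand of chromosome 6, in Ncapd2) is U85, which has both box C/D and box H/ACA parts and guides U5 RNA modification. Scarna2 (414 bases on the minus strand of chromosome 3, in no host) guides methylation of U2 RNA and is transcribed from its own promoter. The stretches are chr6:125186584-125186683 and chr6:125186359-125186458, then chr3:108554652-108554751 and chr3:108554338-108554437, all on GRCm38.
Scarna10 first: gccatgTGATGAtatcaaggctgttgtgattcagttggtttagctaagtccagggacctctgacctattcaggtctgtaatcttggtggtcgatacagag
Scarna10 last: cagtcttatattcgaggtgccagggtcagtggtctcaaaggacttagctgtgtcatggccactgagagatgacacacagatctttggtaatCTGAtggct
Scarna2 first: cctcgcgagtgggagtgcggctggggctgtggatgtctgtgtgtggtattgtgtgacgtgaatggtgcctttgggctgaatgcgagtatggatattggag
Scarna2 last: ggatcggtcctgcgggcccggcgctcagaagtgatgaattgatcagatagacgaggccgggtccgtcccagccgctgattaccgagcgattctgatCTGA

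The boxes separated the classes as their names say. The C box was found in 70 of 99 Snord sequences (70.7%) and in 0 of 42 Snora sequences, and among members in 15 of 17 Snord, all but Snord13 and Snord22. The D box was found in 92 of 99 Snord (92.9%) and in 3 of 42 Snora sequences (7.14%). The ACA box was found in 40 of 42 Snora (95.2%) and in 7 of 99 Snord sequences (7.07%), and Snora44 was the 1 Snora member without it. On the opposite strand of all 150 sequences the C box was found in 0, the D box in 7 and the ACA box in 22. A match is a run of letters in a window, not a tested site.

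Depth after rounding was 29551404 to 33019918 counts for batch 1 libraries, and for batch 2 libraries it was 36380404 to 50746710. Kidney markers were present in every library, among them Umod of the thick ascending limb at 2195 to 4090 CPM (counts scaled to the size of the library) and Nphs1 of podocytes at 26.0 to 40.1 CPM. Nbl1 stood at 3.84 to 4.88 CPM in 5 of the 6 HET libraries of batch 1 and at 6.96 to 7.74 CPM in 4 of the 6 WT libraries. In batch 2, Nbl1 was 4.23 to 7.84 CPM in HET and 7.02 to 15.2 CPM in WT, so these ranges overlapped. The other 3 batch 1 libraries went against their labels in counts of the gene Htr6, and their Nbl1 lay outside the batch 1 range above for their label. With these 3 included, the batch 1 ranges of Nbl1 overlapped, at 3.84 to 9.21 CPM in HET and 3.61 to 7.74 CPM in WT. The library labelled HET replicate 6 had 9.21 CPM of Nbl1 and no count of Htr6, a gene with 8 to 39 counts in the other 5 HET libraries of the batch. The library labelled WT replicate 1 had 5.39 CPM of Nbl1, between the 5 HET and the 4 WT libraries above, with 26 counts of Htr6. WT replicate 2 had 3.61 CPM of Nbl1 with 14 counts of Htr6. The other 4 WT libraries had at most 1 count of Htr6. Genotype tests by edgeR are given with and without these 3 libraries.

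All 34 members were high in batch 1 and near 0 in batch 2. Every batch 1 library lay above every batch 2 library for 34 of 34 members, and that held for 13.3% of the 19476 genes tested. The pooled CPM of batch 1 was 16.5 to 3150 times that of batch 2, with a median of 171. In batch 2, 8 members had no count in any library and enter these ratios at a bound, 11 had 1 to 3 counts in all and 15 had 4 or more. All 34 were also called lower in batch 2 by edgeR's quasi-likelihood test at a Benjamini-Hochberg adjusted p of 0.05, beside 31.2% of all genes. The rule fixes most of this, since 10 counts in 6 libraries can come from batch 1 alone.

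**Figure D1:**
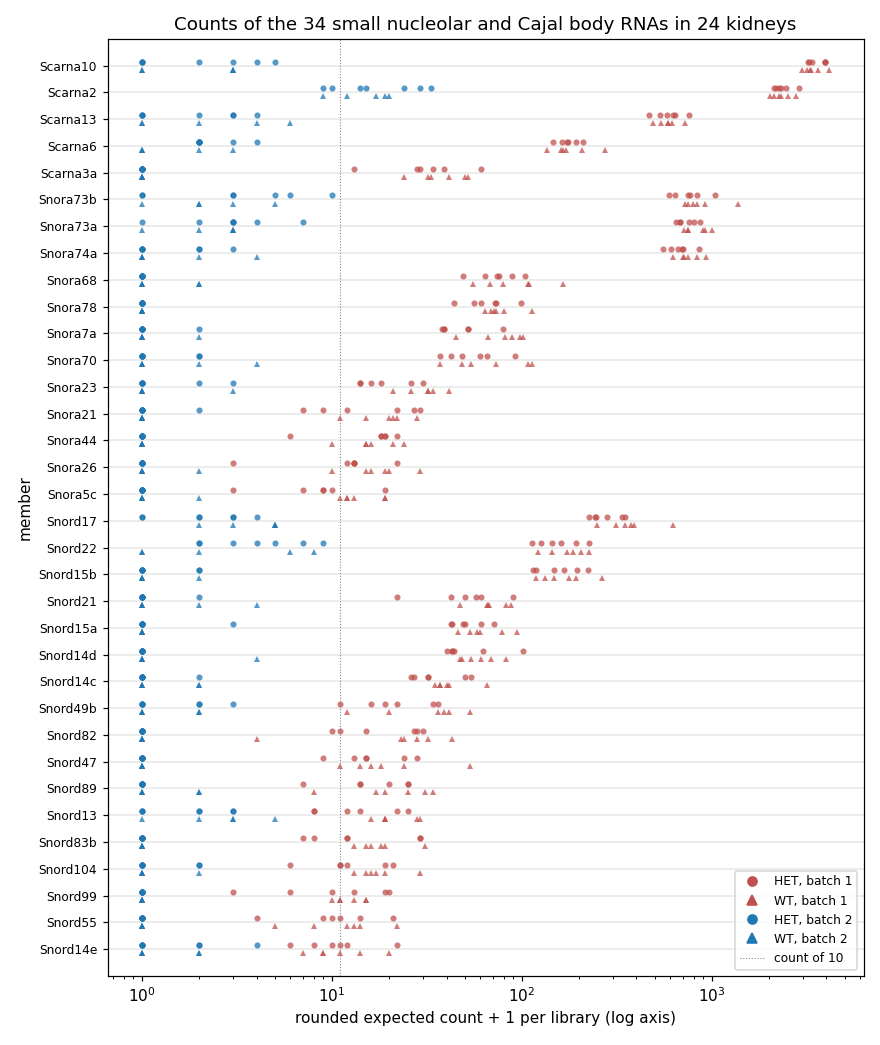
Rounded expected count plus 1 of each of the 34 members (rows) in each of the 24 libraries, on a log axis; circles are HET mice, triangles WT mice, red batch 1 and blue batch 2, and the dotted line marks a count of 10. Only Scarna2 has batch 2 points to the right of the line, and the genotypes overlap within batch 1.

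The scaRNAs were the most abundant class. Scarna10 had 3202 to 3950 counts in the HET mice of batch 1 (median 3638.5) and 2979 to 4133 in the WT mice (median 3298.5). In batch 2 it had 0 to 4 counts in HET and 2, 2, 0, 2 and 0 in WT. The batches were apart without overlap, the pooled CPM being 3150 times higher in batch 1 (95% exact binomial interval 1939 to 5511). Intervals of this kind cover counting error only. Exons of Ncapd2 and Gm28967 on the same strand overlap Scarna10, whose counts were not whole in 12 of 12 batch 1 libraries. How its reads were divided is uncertain.

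Scarna2 had 2113 to 2866 counts in HET (median 2273.5) and 2015 to 2752 in WT (median 2276) in batch 1. It was the only member to reach 10 counts in a batch 2 library, while 26 members had at least 1 count in that batch. Scarna2 stood there at 8 to 32 counts in HET and 8, 19, 18, 11 and 16 in WT. Its ratio of 169 (147 to 195) rests on more batch 2 reads than any other. Scarna2 was also the steadiest member in batch 1, with a coefficient of variation over the 12 libraries of 7.56%, against 2.07% from counting alone.

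Scarna13 (U93, in Snhg10), an H/ACA scaRNA that guides U2 and U5 modification, had 463 to 756 counts in HET and 487 to 722 in WT in batch 1. Its total in batch 2 was 17, a ratio of 501 (313 to 861). Scarna6 (U88, in Atg16l1), built like U85, had 134 to 271 counts in batch 1 and a total of 13 in batch 2, a ratio of 198 (116 to 373). Scarna3a (in Cop1) had 12 to 60 counts in batch 1 and none in batch 2. Against a floor of 3 counts over the whole of batch 2 it was at least 169-fold higher in batch 1.

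Among the H/ACA snoRNAs, Snora73b, Snora73a and Snora74a (U19, in Snhg4) were far above the other 9. In batch 1 they stood at 25.2 ± 6.30, 23.8 ± 3.17 and 21.7 ± 3.05 CPM (SD, n = 12), neighbours that lie within 1 SD of each other. Their totals fell from 9983, 9426 and 8607 counts in batch 1 to 30, 23 and 8 in batch 2. The ratios were 399 (279 to 591), 491 (327 to 775) and 1289 (654 to 2986). The next in order, Snora68, held 1026 counts in batch 1 and 2 in batch 2. Snora78 (in Snhg9) held 863 and 0, at least 345-fold higher in batch 1. The other 7 totalled 131 (Snora5c) to 765 (Snora7a) counts in batch 1 and 0 to 6 in batch 2.

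The box C/D snoRNAs were lower again. Snord17 had 225 to 348 counts in HET (median 261) and 247 to 620 in WT (median 362) in batch 1, and 0 to 4 in every batch 2 library, a ratio of 197 (133 to 309). Snord22 (U22, in Snhg1), which acts in small-subunit ribosomal RNA maturation, totalled 2001 and 38 counts, a ratio of 63.1 (45.8 to 89.4). Snord15b and Snord15a (U15, both in Rps3), guides to the large-subunit ribosomal RNA, totalled 1980 and 693 counts in batch 1 and 3 and 2 in batch 2. These copies are alike at only 107 of 162 aligned positions (66.0%). The smallest ratios of all were those of Snord13 at 16.5 (9.79 to 30.1) and Snord14e at 21.7 (10.2 to 55.1). Snord13 (U13), which lies in no host gene, is outside the naming rule and was picked after its values were seen. It had 7 to 28 counts in batch 1 and 0 to 4 in batch 2.

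Per kilobase of annotated length the batch 1 order was much the same at the top. Scarna10 was at 327 CPM per kilobase, Scarna2 at 171, Snora73b at 123, Snora73a at 116 and Snora74a at 111. Scarna13 followed at 65.3 and Snord17 at 42.0, and Snora5c was lowest at 2.42. Across the 34 members, the coefficient of variation in batch 1 ran from 7.56% to 62.2% with a median of 35.2%, the highest being Snord47.

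The count rule drew its line through a continuous range. The members just inside were Snord14e (10 counts or more in 6 libraries), Snord55 (7) and Snora5c (7), with totals of 134, 131 and 132 counts. The rows just outside were Snora81 (5 libraries), Snora61 (4) and Snora28 (4), with totals of 96, 110 and 93. Of all 150 rows, members or not, 104 had the higher pooled level in batch 1, 2 in batch 2 (Scarna17 and Snord88a, picked after their values were seen) and 44 had no count anywhere. The 116 rows that are no members totalled 1556 counts in batch 1 and 146 in batch 2, a ratio of 12.8 (10.8 to 15.2).

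Summed over all rows of a class, Scarna stood at 204 ± 13.6 CPM in HET (n = 6) and 200 ± 13.3 in WT (n = 6) in batch 1, and at 0.815 ± 0.365 (n = 7) and 0.549 ± 0.0697 (n = 5) in batch 2 (SD throughout). The Snora sum was 76.9 ± 9.37 CPM in HET and 90.8 ± 17.0 in WT in batch 1, and 0.280 ± 0.116 and 0.229 ± 0.0894 in batch 2. The Snord sum was 29.7 ± 4.78 and 36.7 ± 6.68 CPM in batch 1, and 0.274 ± 0.101 and 0.301 ± 0.113 in batch 2. In each class the ranges of HET and WT overlapped within both batches. The log2 ratio of the batch 1 means, HET over WT, was -0.24 for Snora, -0.31 for Snord and 0.03 for Scarna. Without the 3 libraries that went against their labels it was -0.09, -0.13 and 0.09, and the ranges still overlapped. The highest Snora and Snord sums, 124.5 and 45.7 CPM, were both in WT replicate 2, one of the 3 libraries that went against their labels.

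**Figure D2:**
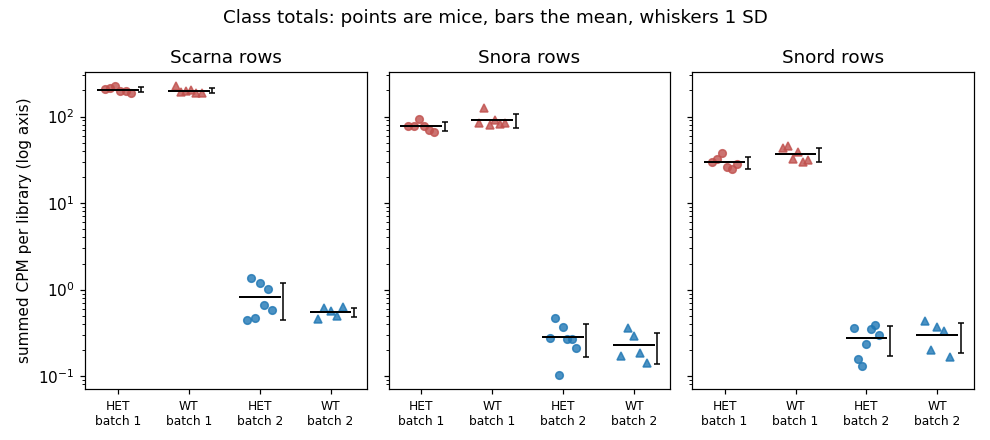
Summed CPM of all Scarna, Snora and Snord rows per library on a log axis, by genotype and batch; points are mice, horizontal bars the group mean and whiskers 1 SD. Every batch 1 library lies above 24 CPM and every batch 2 library below 1.4 CPM in each class.

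Longer RNAs had more counts. Over the 150 rows, annotated length and the log2 level in batch 1 were related with Pearson's r of 0.69 and Spearman's rho of 0.40, and over the 9 Scarna rows with 0.94 and 0.93. Within the 42 Snora rows these were 0.67 and 0.29, and within the 99 Snord rows 0.48 and 0.03. The points share the same 12 libraries, and the values are given as a description. The median length was 275 bases for Scarna members and 105 for the other Scarna rows, 137 and 132 for Snora, and 90 and 82 for Snord.

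**Figure D3:**
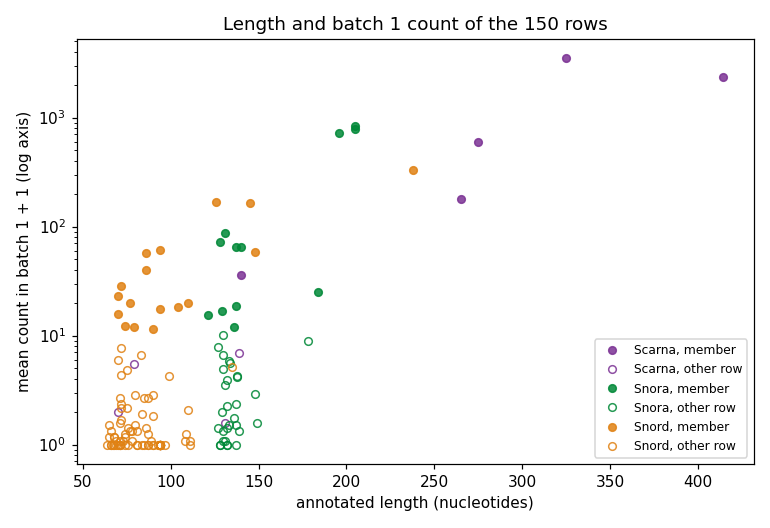
Annotated length in nucleotides against the mean batch 1 count plus 1 (log axis) for the 150 rows, coloured by class, with members filled. All rows over 200 bases are members, while rows near 70 to 140 bases include both members and rows with no count.

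The deposited TPM values lose part of these RNAs. Of 408 batch 1 values of members, all with a count above 0, 136 are listed at a TPM of 0. They include all 12 libraries of 11 members, none longer than 94 bases, and the shortest member with a TPM above 0 has 104 bases. The length that the count, the deposited FPKM and the library total together imply was 25.3 bases for Snora73a, annotated at 205. It was 104 bases for Scarna10, annotated at 325, and 181 bases for Scarna2, annotated at 414. On log2(TPM + 1), 22 of the 34 members were called between batches.

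The host genes showed no drop of this size between the batches. Of the 34 members, 31 lie within a gene on the same strand, in 26 distinct hosts, and Scarna2, Snord104 and Snord13 lie in none. Where several genes enclosed a member, a protein-coding gene was taken as its host before a noncoding one. The 26 hosts were all tested: 12 were higher in batch 2, 8 were lower and 6 were not called, beside 63.3% of all genes called. Their log2 differences, batch 2 against batch 1, ran from -2.15 to 1.96 with a median of 0.03, whereas the members' fitted values had a median of -7.27 and all genes one of 0.02. Without TMM scaling, which moves the median of all genes to -0.12, 7 hosts were called higher and 12 lower, beside 2331 and 8306 of 19476 genes.

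Ncapd2, a condensin subunit and host of Scarna10, was at 8.45 CPM in batch 1 and 9.32 in batch 2 (log2 difference 0.14 ± 0.06 SE). Rcc1, the nucleotide exchange factor of Ran and the protein-coding gene around both U17 copies, was at 10.2 and 11.7 CPM (0.20 ± 0.05). Snx5, a sorting nexin and host of Snord17, was at 71.0 and 84.5 CPM (0.25 ± 0.03), and Hspa8, the constitutive Hsc70 chaperone and host of the U14 copies, at 1297 and 2039 CPM (0.63 ± 0.12). All 4 hosts so assigned were called higher in the batch in which their RNA was near 0. They are among the 12 of 26 hosts called higher, while 8 were called lower. Among the lower ones were Snhg1 (host of Snord22, -0.49 ± 0.06) and Snhg12 (host of Snora44 and Snord99, -0.47 ± 0.06). Cop1 (host of Scarna3a, -0.19 ± 0.03) and Atg16l1 (host of Scarna6, -0.11 ± 0.04) were lower too. Without scaling beyond library totals Ncapd2 stood at -0.003 and Rcc1 at 0.05, neither called. Snhg3, a noncoding snoRNA host gene with an exon over Snora73a, was called lower in batch 2, at 6.07 and 5.30 CPM (-0.20 ± 0.08). The widest hosts were Rpl10 (host of Snora70) at 37.7 and 146.1 CPM, and Snhg9 (host of Snora78) at 0.332 and 0.0713 CPM. Snhg9 fell by 2.15 on the log2 scale, the largest fall among the 26 hosts. For 19 members the annotation also places an exon of a gene on the same strand over the RNA, so some of their reads may belong to that gene. Counts were not whole for 18 of these 19 and for 1 of the other 15, Snora73b.

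**Figure D4:**
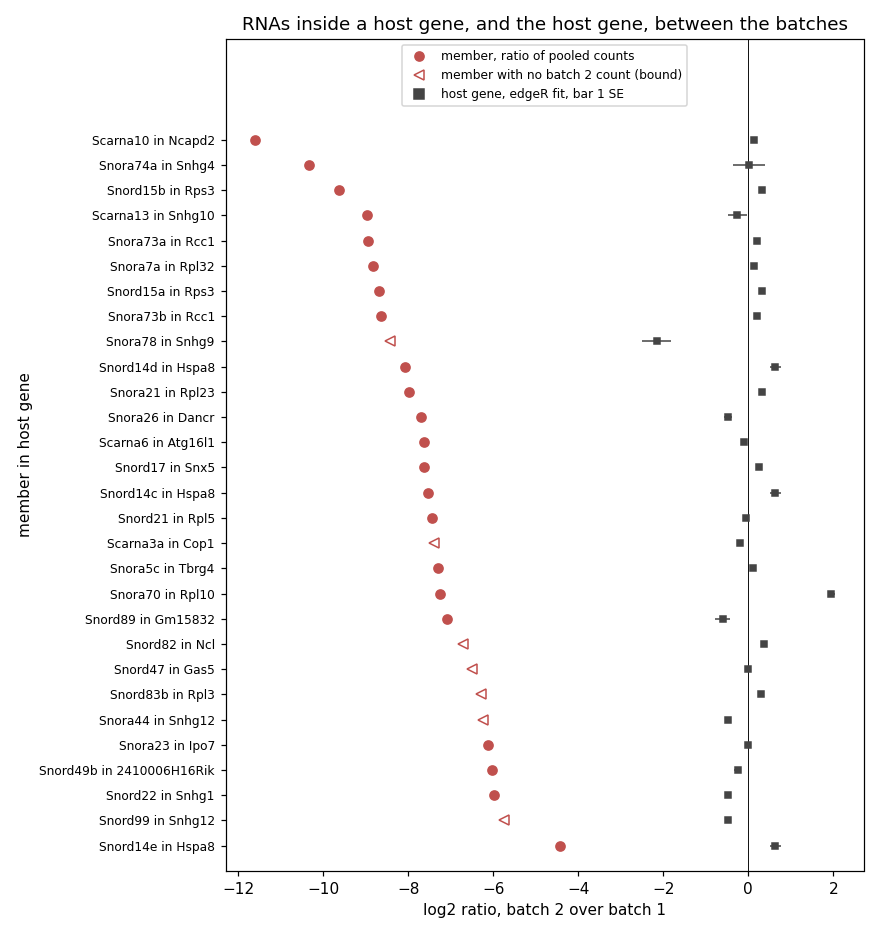
Log2 ratio of batch 2 over batch 1 for members that lie inside a host gene, 2 of the 31 not shown (red, from pooled counts; open triangles are bounds for members with no batch 2 count) and for the host (grey squares, edgeR fit with 1 SE). Members all lie left of every host, and the hosts lie between -2.15 and 1.96.

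Many proteins that build the particles were slightly higher in batch 2. Of 26 listed core and assembly proteins 25 were tested, and 17 were called higher in batch 2 and 1 lower, beside 32.2% of all genes called higher and 31.2% lower. The median log2 difference was 0.20 and the largest 0.51. Without TMM scaling 11 were called higher and 4 lower (median 0.05), beside 2331 and 8306 of 19476 genes. Ruvbl1, an ATPase of the assembly machinery, went from 11.7 to 16.7 CPM. Phax, the adaptor for export of small RNAs, went from 17.4 to 23.8 CPM, and Dkc1, the pseudouridine synthase of H/ACA particles, from 12.3 to 16.0 CPM.

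Of 21 listed noncoding snoRNA host genes, 14 were called lower in batch 2 and 0 higher, beside 31.2% and 32.2% of all genes. The median log2 difference was -0.41. Without TMM scaling 17 were called lower and 0 higher, beside 8306 and 2331 of 19476 genes. With that scaling Snhg14 fell by 0.81, Snhg15 by 0.71 and Snhg8 by 0.52, all far smaller steps than those of the members. Other short noncoding RNAs moved as the members did. The 23 tested rows of that list hold 16 distinct sets of counts, since copies such as those of Rnu3b carry identical values. All 16 were lower in batch 2, with a median log2 difference of -8.22. Rpph1, the RNA of ribonuclease P, stood at 2598 CPM in batch 1 and 0.770 in batch 2, and Rn7sk, the RNA that holds the elongation factor P-TEFb, at 10112 and 52.1 CPM.

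By annotation class, 3 kinds of short noncoding RNA moved likewise and the microRNA class did not. Rows of the snoRNA and scaRNA biotypes under other names numbered 1409, of which 51 passed the count rule and 47 of those (92.2%) had no overlap between batches. The same held for 26 of 28 snRNA rows that passed (92.9%) and 14 of 16 misc_RNA rows (87.5%). Of the miRNA rows 10 passed and 2 (20%) did not overlap. Among protein-coding rows 15162 passed and 966 (6.37%) had every batch 1 library higher. Rows can pass the rule on batch 1 counts alone, so these shares are a description. Over all rows of a class, passed or not, the pooled level in batch 1 was 45.1 times that in batch 2 for the other snoRNA and scaRNA rows. It was 290 times for snRNA, 878 for misc_RNA, 1.22 for miRNA (2202 rows) and 0.920 for protein-coding rows. With the batch also moved CT010467.1, at 11.6 to 1922 CPM in batch 1 and 48357 to 220445 CPM in batch 2, and its part in the result was not tested.

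Between genotypes, no member was called. Over all 24 mice with batch as a covariate, edgeR's quasi-likelihood test called 0 of 34 at an adjusted p of 0.05 (smallest adjusted p 0.997), and 0 of the 19476 genes tested (0%). DESeq2 and limma voom also called 0. At an unadjusted p of 0.05, 4 members passed, all lower in HET, beside 4.1% of all genes and 1.61% lower. The log2 difference, HET against WT, was below 0 for 29 of 34 members and for 44.3% of all genes, with a median of -0.22 for members and 0.009 for all genes.

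The classes did not sit alike. Of the Snora members 11 of 12 were below 0 (median -0.31), of the Snord members 16 of 17 (median -0.27), and of the Scarna members 2 of 5 (median 0.002). Without the 3 libraries that went against their labels, 22 of 34 members were below 0 (median -0.13), beside 9991 of 19738 genes. Of the 34, 1 member (Snora7a) passed an unadjusted p of 0.05 by edgeR, beside 4.91% of all genes. At the adjusted threshold 0 were called, beside 2 of 19738 genes. The members below 0 were then 9 of 12 Snora, 12 of 17 Snord and 1 of 5 Scarna (medians -0.13, -0.33 and 0.11). Members of one library are measured on the same RNA, so the count of signs is not a count of independent results, and the difference between classes was not tested.

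**Figure D5:**
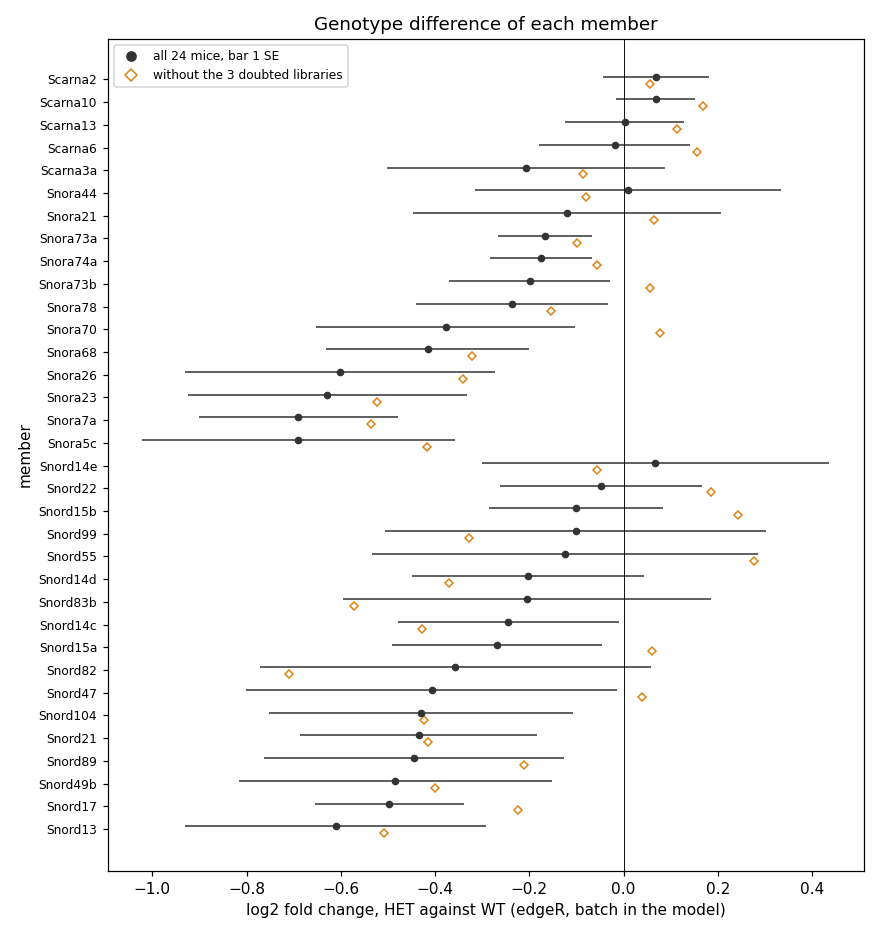
Log2 fold change of HET against WT for each member from edgeR with batch in the model; circles with 1 SE use all 24 mice and open diamonds leave out the 3 libraries that went against their labels. With all mice 29 of 34 lie left of 0, and 22 without the 3 libraries.

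Snora7a, a guide embedded in the ribosomal protein gene Rpl32, had 37 to 78 counts in the HET mice of batch 1 (median 44.5) and 44 to 100 in the WT mice (median 83.5). The ranges overlapped, while all 6 HET mice lay below the WT median. Its log2 difference over all mice was -0.69 ± 0.21 (SE, edgeR, unadjusted p 0.00278), and -0.54 (unadjusted p 0.045) without the 3 libraries. Its host Rpl32 differed over both batches by 0.06 (unadjusted p 0.141), and by 0.08 (unadjusted p 0.0397 by edgeR) without the 3 libraries. Within batch 1, which holds 765 of the Snora7a counts against 2 in batch 2, Rpl32 differed by -0.015 (unadjusted p 0.778 by edgeR). An exon of Rpl32 on the same strand overlaps Snora7a, whose counts were not whole in 12 of 12 batch 1 libraries. How reads were divided between Snora7a and Rpl32 is uncertain.

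Snord17 had a log2 difference of -0.50 ± 0.16 (unadjusted p 0.004 by edgeR). WT replicate 2 held the highest value, 620 counts, against 247 to 385 in the other 5 WT mice of the batch and 225 to 348 in HET. Without the 3 libraries the difference was -0.22 (unadjusted p 0.158), a smaller step in the same direction. Its host Snx5 differed by 0.01, and by -0.005 without them.

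Snora23 (in Ipo7, an importin gene) had 13 to 29 counts in HET and 20 to 40 in WT in batch 1, with a log2 difference over all mice of -0.63 ± 0.30 (unadjusted p 0.042 by edgeR). Snora5c (in Tbrg4) had 2 to 18 and 10 to 18 counts and a difference of -0.69 ± 0.33 (unadjusted p 0.046). These differences became -0.52 (unadjusted p 0.149 by edgeR) and -0.42 (0.251) without the 3 libraries. The 2 most abundant members differed by less than 1 SE over all mice, Scarna10 by 0.07 ± 0.08 and Scarna2 by 0.07 ± 0.11. When the 3 libraries were left out Scarna10 was higher in HET by 0.17 ± 0.09 over all mice (unadjusted p 0.0698 by edgeR) and by 0.16 ± 0.05 in batch 1 (unadjusted p 0.00863, adjusted p 1.00), and Scarna2 differed by 0.06 ± 0.13 over all mice.

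Within batch 1 alone 33 members could be tested and 0 were called by edgeR or DESeq2, beside 0% of 18494 genes. At an unadjusted p of 0.05 edgeR and DESeq2 each passed 4, beside 2.82% of all genes by edgeR and 1.54% lower. The difference was below 0 for 29 of 33 (median -0.24), beside 50.6% of all genes. Without the 3 libraries it was below 0 for 22 of 33 (median -0.14), beside 9232 of 18709 genes. The 2 members then at an unadjusted p of 0.05 by edgeR, beside 3.15% of all genes, went opposite ways. Scarna10 was higher in HET and Snora7a lower (-0.55, unadjusted p 0.0401 by edgeR), and 0 were called, beside 2 of 18709 genes. An exact two-sided permutation test of log2(CPM + 1) was run for the 23 named members, with a smallest possible p of 0.00216 for 6 against 6. Of these, 10 were named for their genotype p in the same libraries, so their exact values restate that choice and are no second test. Snora23 gave an exact p of 0.0108, Snora7a 0.0173 and Snord17 0.0325, unadjusted for the 23 tests. Adjusted over the 23 by Benjamini-Hochberg, these exact values were 0.199, 0.199 and 0.249. Over the other 9 libraries (5 HET against 4 WT, smallest possible p 0.00794) the unadjusted exact values were 0.0476, 0.103 and 0.238. That of Scarna10, higher in HET, was 0.0317. Adjusted, they were 0.548 for Snora23 and Scarna10 and 0.649 for Snora7a and Snord17.

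Within batch 2 only Scarna2 had enough counts for a test, with a log2 difference of 0.59 (unadjusted p 0.152 by edgeR), beside 0.00557% of 17955 genes called. The other 33 members had too few counts in batch 2 for a genotype difference to be tested there. A genotype difference that itself differed by batch (the interaction term) was called in 0 of 34 members by edgeR, none of them at an unadjusted p of 0.05, beside 0% of all genes called and 7.86% at the unadjusted threshold. It was again called in 0 of 34 by edgeR without the 3 libraries, with 0 at the unadjusted threshold beside 6.65% of all genes. The genotype values over all mice thus rest almost wholly on batch 1.

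No host gene and no particle protein was called between genotypes by edgeR, with or without the 3 libraries. Over all mice the 26 hosts ran from -0.05 to 0.11 on the log2 scale, with 0 called and 0 at an unadjusted p of 0.05 by edgeR. Leaving out the 3 libraries gave -0.07 to 0.19, and 3 passed the unadjusted threshold, all higher in HET, Rpl32 and Rps3 among them. Of all genes 4.91% passed there, 464 of 19738 being higher in HET. Within batch 1 the 25 hosts tested ran from -0.25 to 0.16, and 26 from -0.20 to 0.24 without the 3 libraries. In batch 1, 0 passed the unadjusted threshold by edgeR either way. Of the 25 particle proteins 0 were called and 0 passed the unadjusted threshold, Phax being nearest (0.11, unadjusted p 0.0518, and 0.12, unadjusted p 0.0472, without the 3 libraries). Of the 21 listed host RNAs 0 were called and 1 passed unadjusted, Snhg11 (-0.14, unadjusted p 0.028, and -0.18, 0.0244, without the 3 libraries). Of the 23 rows of other short noncoding RNAs (16 distinct) 0 were called and 6 passed unadjusted, 5 lower and 1 higher in HET, beside 4.1% of all genes. The lower ones included Rnu12, the U12 spliceosomal RNA (-0.54, unadjusted p 0.000967), 1 of 2 Rnu3a rows (-0.73, unadjusted p 0.00159) and Rnu2-10 (-0.31, unadjusted p 0.0104). The higher one was Rn7sk (0.40, unadjusted p 0.0446). Its means were 10103 CPM in HET and 10120 in WT in batch 1, and 63.8 and 35.7 in batch 2. Within batch 1, 22 of 22 tested rows (15 of 15 distinct) were below 0, beside 50.6% of all genes. Of these rows 3 had an unadjusted p under 0.05 by edgeR, beside 2.82% of all genes. Without the 3 libraries 17 of 22 (10 of 15 distinct) were below 0 there, beside 9232 of 18709 genes, and 0 passed. The interaction term passed unadjusted for 8 of 23 rows (4 of 16 distinct), beside 7.86% of all genes. Over all mice without the 3 libraries 2 rows passed, beside 4.91% of all genes. They were Rnu12 (-0.40, unadjusted p 0.026 by edgeR) and Rn7sk (0.50, unadjusted p 0.0202), which went opposite ways.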

How the data were processed

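Kidney RNA of 24 mice was sequenced, and the authors deposited 1 table of expected counts, TPM and FPKM per gene. The submitters' processing notes name fastp, STAR, featureCounts and GRCm38 (mm10). Not given in the sources used here are tool versions, the annotation, use of strand, and how counts came not to be whole for 11.8% to 15.4% of genes. Counts were rounded; TPM and FPKM were used as deposited, in alternatives only. Genes passing filterByExpr (minimum count 10; 19476 genes) were scaled by TMM and tested with edgeR 4.0.16 (quasi-likelihood, R 4.3.3), adjusting over all genes. DESeq2 1.42.0, limma 3.58.1, other scalings, filters and left-out libraries were alternatives. On simulated counts the all-mice test recovered 80% of 1.5-fold and 88% of 2-fold changes, over 19268 genes. Each fold was given to 50 genes, and 12 of the 174 calls over all folds were false. The counts of the members lie almost wholly in batch 1, so these rates do not give the recovery for members. The members and lists were chosen with earlier results of these data known. Named members are the 5 most abundant per class, the 5 of smallest genotype p in each direction, the 5 largest and 5 smallest batch differences among members of at least 1 CPM in a batch, and those nearest the count rule. Replicates were numbered in accession order and pair nothing. The labels give each library as a mouse, and p-values measure the spread between these mice. The sequence of 1 member and the host genes of 2 others are not reported here.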

Additional observations from a re-analysis of the deposited data

Results flagged for a closer look

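Of 60 groups of libraries checked for 1 value far from the rest by Dixon's ratio, 10 held one, and chance gives about 1 in 20. WT replicate 2 stood highest in batch 1 WT for the Snora class total (124.518 CPM, others 79.0 to 90.7), Snora73b (43.0952 CPM, others 22.5 to 26.1), Snora78 (3.51286 CPM, others 1.92 to 2.37) and Snord17 (19.4462 CPM, others 8.12 to 11.7). WT replicate 1 stood highest for Scarna10 (125.857 CPM, others 94.2 to 104.2) and Scarna13 (21.9861 CPM, others 16.0 to 17.5). Both libraries went against their labels. HET replicate 6, the third such library, stood highest in HET for Snord14e (0.646571 CPM, others 0.157 to 0.312). The other 3 were HET replicate 3 for Scarna2 (81.3776 CPM, others 65.5 to 71.1), HET replicate 2, lowest for Snora44 (0.155034 CPM, others 0.483 to 0.609), and WT replicate 4 for Snord14c (1.82663 CPM, others 1.07 to 1.28).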

How the results depend on the processing

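No paired analysis was possible because replicates were numbered in accession order and no label ties a HET mouse to a WT mouse. The 34 members stayed called between batches under DESeq2, limma voom, other scalings, no filter and every left-out library, and 22 were called on log2(TPM + 1), log2(TPM + 0.1) and log2(FPKM + 1), where 11 members are listed at 0. No alternative called a member for genotype or interaction. Class log2 ratios of batch 2 over batch 1 moved for Snora to -6.95 and for Snord to -5.36 with summed TPM, and for Scarna to -9.25 with summed FPKM and to -7.16 without Scarna10. The Snord ratio of HET over WT in batch 1 moved to -0.065 with summed TPM; the cause was not tested.

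The genotype log2 differences that changed sign among the 23 named members were uncalled throughout. In the order log2(TPM + 1), log2(TPM + 0.1) and log2(FPKM + 1) they became -0.028, -0.11 and -0.033 for Scarna13, 0.24, 0.88 and 0.17 for Scarna6, 0.15, 0.27 and 0.11 for Snora73a, 0.16, 0.15 and 0.12 for Snora73b, 0.16, 0.38 and 0.12 for Snord15a, 0.20, 0.34 and 0.17 for Snord15b, and 0.77, 1.17 and 0.69 for Snord22. Snora78 became 0.013 and 0.014 with the first pair. Without the 3 libraries that went against their labels, they became 0.16 (Scarna6), -0.080 (Snora44), 0.076 (Snora70), 0.056 (Snora73b), -0.057 (Snord14e), 0.060 (Snord15a), 0.24 (Snord15b), 0.19 (Snord22) and 0.28 (Snord55). Of all 34 members 11 changed sign there, the other two being Snora21 (0.065) and Snord47 (0.039), which the naming rule does not hold. Snora44 was -0.013 with limma voom, and Snora73b 0.0052 with DESeq2.

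Leaving out 1 library at a time gave -0.054 to 0.064 for Scarna13, -0.070 to 0.14 for Scarna6, -0.091 to 0.18 for Snora44, -0.20 to 0.28 for Snord14e, -0.20 to 0.072 for Snord15b, -0.12 to 0.032 for Snord22 and -0.37 to 0.13 for Snord55. Among members not named, the ranges that crossed 0 were -0.33 to 0.043 for Snora21, -0.61 to 0.052 for Snord47 and -0.31 to 0.10 for Snord99. The members below 0 over all mice then numbered 26 to 31. Members at an unadjusted p of 0.05 by edgeR were 2 without HET replicate 5, HET replicate 6 or WT replicate 2, and 7 without HET replicate 3. Counts of 0 to 38 per member over batch 2, except for Scarna2, allow no genotype statement there.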

Other observations

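Within batch 1 the members tended to be high in the same libraries. WT replicate 1 held the highest CPM of 12 of the 34 members and WT replicate 2 that of 11, while HET replicate 5 held the lowest of 11. Among the 9 batch 1 libraries other than the 3 that went against their labels, HET replicate 3 lay above the batch 1 median for 31 members. WT replicate 4 did so for 29, and HET replicate 5 for 3. The 2 libraries with most members above the median were thus of different genotypes. Leaving out HET replicate 3 raised the members at an unadjusted p of 0.05 by edgeR from 4 to 7 over all mice and from 4 to 8 in batch 1, and leaving out HET replicate 5 gave 2 in both.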
